A study of Homo sapiens with 9 samples.

Results

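The 3 control libraries of HCT8, an established human epithelial cell line derived from an adenocarcinoma of the ileocecal region, are described here across all 26008 gene rows of the deposited count table. They were taken by their labels and are 3 of the 9 libraries of the study. The control cells received 20 mM Tris-HCl for 5 h after 16 h in culture, and the labels also call them untreated. The other groups, with 3 libraries each, received membrane vesicles of V. cholerae (C6706 in the sample titles) or of E. coli (MC1061) for the same time. All groups are the same line with no genetic change named, and the labels do not tell whether replicates were grown apart. The p-values below thus rest on a spread among libraries that could be purely technical.

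Poly(A) RNA was sequenced as single 50 bp reads from a kit that marks the strand of each RNA. The control columns held 363557, 401862 and 477888 counts in replicates 1, 2 and 3. Levels are given as CPM, counts over the column total times 1e+06. A level of 3 counts is worth 8.25, 7.47 and 6.28 CPM in the respective libraries, and 2.41 CPM over the 3 together, as the limit that a count of 0 allows (counting error only). CPM is not divided by length, so an order of rows is an order of read counts, not of molecules.

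Human genes often lie on opposite strands of the same stretch of DNA. Where their 3′ ends face each other (tail to tail), the last exons can overlap, and where they start side by side (head to head), the first exons can. A read from such an overlap belongs to one gene or the other only by its strand. The strand setting of the counting was not given in the sources used here, and from the counts alone reads of a row's own gene and of the gene opposite cannot be told apart. The leading rows are therefore given with the gene whose exons lie opposite them. A row named alone below can still hold reads of an opposite gene.

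The overlaps of the leading rows are shown by 30 bases from the middle of the longest exact antisense match between GENCODE 29 transcripts of the row's gene and of the opposite gene. These matches were 304 nt for KRT8 and KRT18, 335 nt for SNX22 and PPIB, and 459 nt for MIF-AS1, the gene of the LOC284889 row, and MIF. Each sequence is in the sense of the gene named first, and a 50 bp read of this stretch fits both genes apart from its strand.
KRT18, opposite the KRT8 row: cgggggcctggccaccgggatagccggggg
PPIB, opposite the SNX22 row: cgtctgtgcaggccctgtagtccgccacag
MIF, opposite the LOC284889 row: cgcgcggccaggcccgggactgagccaccc
The same DNA in the sense of the row's own gene reads as follows, which is what a transcript of that gene would hold.
KRT8: cccccggctatcccggtggccaggcccccg
SNX22: ctgtggcggactacagggcctgcacagacg
MIF-AS1: gggtggctcagtcccgggcctggccgcgcg

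The counts of the control cells lay in few rows, and mostly in rows with an exon opposite an exon of another gene. The 10 highest rows held 15.4% of the counts, the 30 highest 26.4% and the 200 highest 55.5% (means of 3 libraries). Rows with an exon opposite another gene's exon held 84.1% ± 1.68 of the counts (SD, n = 3), with 85.2%, 85.0% and 82.2% in replicates 1, 2 and 3. They made up 32.0% of all rows and 182 of the 200 highest. For 613 rows of the table known only by a RefSeq span, PCNA-AS1 among them, the whole span including introns was taken as exon. Rows with no gene opposite held 10.8% ± 1.34, rows opposite an intron alone 2.27% ± 0.369, and rows not matched to an annotated gene 2.78% ± 0.0415 (SD, n = 3). Genes that face only a RefSeq-span row, such as PCNA, were left in the classes without an exon opposite. The share stood at 82.4% with at least 50 nt of overlap required, and at 70.2% with at least 200 nt.

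A total of 12499 rows had no count in any control, 8182 had at least 1 count in all 3, and 2467 at least 10. A mean of 100 CPM or more was reached by 1153 rows, 4.43% of the table, and of 1000 CPM or more by 186.

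The highest row was KRT8 on chromosome 12, whose exons overlap 525 nt of KRT18 on the other strand. KRT8 and KRT18 encode the type II and type I keratins that pair into the filaments of simple epithelia such as the gut lining. The KRT8 row held 10269, 11346 and 10944 counts in replicates 1, 2 and 3, a level of 26460 ± 3082 CPM (SD, n = 3). The KRT18 row held 73, 85 and 79 counts, or 193 ± 24.2 CPM, so the pair differed in every library by at least 133-fold. Why the rows of the pair stood far apart in all 3 libraries was not tested.

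The second row was SNX22, a sorting nexin gene on chromosome 15 with 519 nt opposite PPIB, which encodes cyclophilin B, a prolyl isomerase of the endoplasmic reticulum. The SNX22 row held 7680, 8666 and 9352 counts (20753 ± 1048 CPM) and the PPIB row 1, 5 and 5 (8.55 ± 5.12 CPM; SD, n = 3). The 3 SNX22 values lay within 19569 and 21565 CPM, and the PPIB values were near the level of 3 counts.

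Next came LOC284889 on chromosome 22, opposite 687 nt of MIF, a secreted cytokine also made by many epithelial tumours. It held 7046, 9881 and 7919 counts, or 20180 ± 4068 CPM (SD, n = 3). Replicate 2 was the highest there and replicate 3 the lowest, with a log2 ratio of replicate 3 to the mean of the others of -0.41. ATP6V1C2, opposite 1033 nt of the endoplasmic reticulum disulfide isomerase gene PDIA6, stood at 16877 ± 2210 CPM. All 3 SNX22 values lay above all 3 of ATP6V1C2, while the range of LOC284889 overlapped both.

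MXD3, on chromosome 5 and enclosing PRELID1, a mitochondrial lipid transfer gene, reached 13818 ± 2162 CPM. ENOSF1, on chromosome 18 and opposite 967 nt of the thymidylate synthase gene TYMS, reached 13709 ± 2796 CPM. These neighbours in the order overlap in range. RPAIN (8738 ± 1450 CPM) lies opposite both the nucleoporin gene NUP88 and C1QBP, a gene for a mitochondrial matrix protein, and the counts do not say to which its reads belong.

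GATC (8596 ± 1478 CPM) lies opposite the splicing factor gene SRSF9, and MFSD11 (5017 ± 877 CPM) opposite SRSF2. FAM166A, a row with only 124 nt opposite the tubulin gene TUBB4B, held 2622, 3353 and 3506 counts (7631 ± 621 CPM; SD, n = 3 for all). The median overlap of rows tail to tail with a coding gene was 386 nt.

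The genes opposite a further set of the 30 highest rows have varied roles. SYNC (6933 CPM) lies opposite the histone chaperone gene RBBP4, SRR (6735 CPM) opposite the ribosome maturation gene TSR1, LOC100129034 (6162 CPM) opposite the proteasome subunit gene PSMB7, and JMJD8 (5596 CPM) opposite the ubiquitin ligase gene STUB1. LOC100128494 (5409 CPM) lies opposite the spindle protein gene NUMA1, SPNS2 (5307 CPM) opposite the nucleolar gene MYBBP1A, and PCNA-AS1 (5238 CPM) opposite PCNA, the sliding clamp of DNA replication. The level of PCNA-AS1 came from 2009, 2388 and 2029 counts. LOC100129931 (5081 CPM) lies opposite TBC1D14 and the coactivator gene TADA2B.

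The remaining rows of the 30 highest stood between 3913 and 5006 CPM. PHC1 lies opposite the mannose 6-phosphate receptor gene M6PR, CERS6-AS1 opposite the ceramide synthase gene CERS6, and GGCX opposite MAT2A, which makes S-adenosylmethionine. CCDC73 lies opposite the translation initiation factor gene EIF3M and THAP3, at 3913 ± 180.0 CPM the lowest of the 30, opposite the mitochondrial co-chaperone gene DNAJC11. A coding gene stood opposite 26 of the 30 highest and 173 of the 200 highest rows. The exceptions among the 30 were MIR6723, MIR4461, HNRNPU-AS1 and YIF1B. HNRNPU-AS1 (6681 ± 1098 CPM) could not be matched to the annotation by name.

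**Figure D1:**
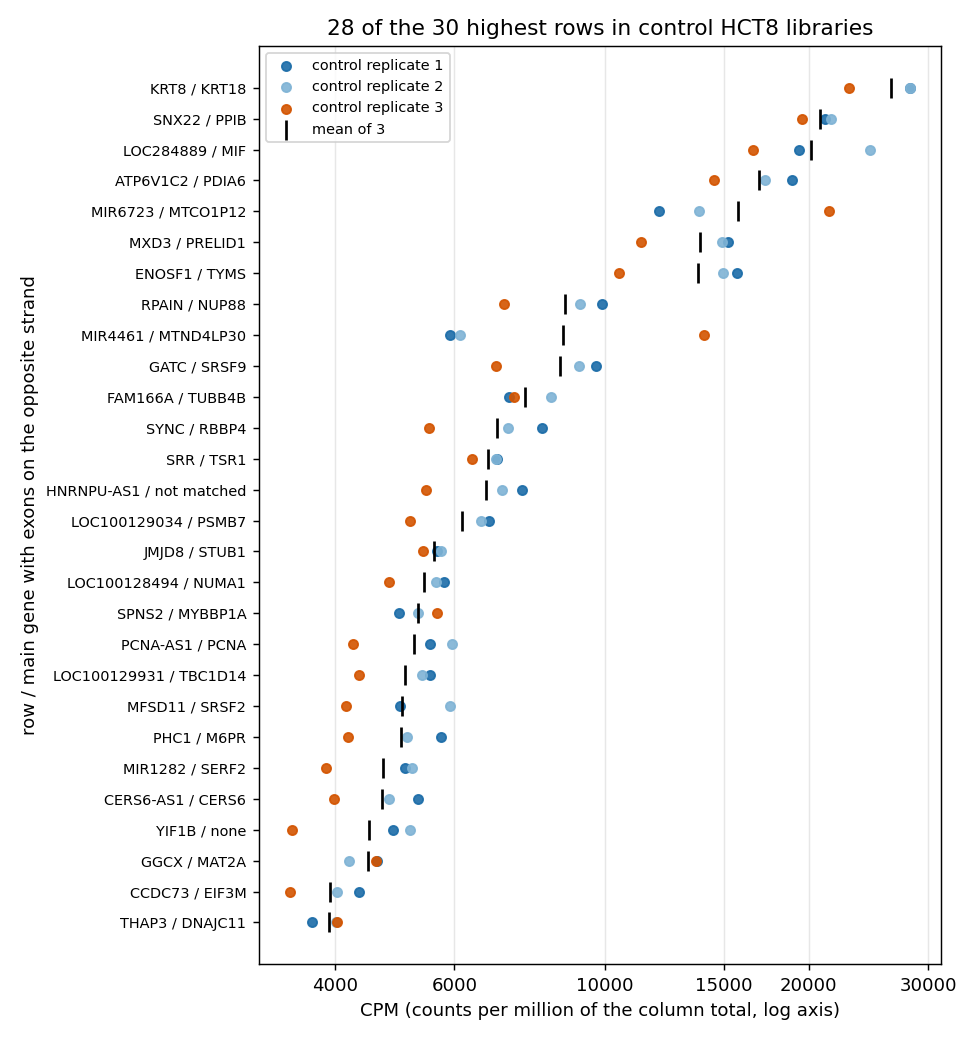
CPM (log axis) of 28 of the 30 highest control rows, each with the main gene whose exons lie on the opposite strand; coloured points are replicates 1 to 3 and black bars their mean. KRT8 leads at a mean of 26460 CPM, replicate 3 is below the mean of replicates 1 and 2 in most rows, and it lies far to the right for MIR6723 and MIR4461.

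Among the 30 highest rows, 3 are named for microRNAs, short RNAs that are cut from hairpins and repress other messages. Their rows count reads of poly(A) RNA over the hairpin locus, not mature microRNAs. MIR1282, on chromosome 15, held 1846, 2085 and 1851 counts (4713 ± 729 CPM; SD, n = 3). Its hairpin of 101 nt lies wholly opposite SERF2 exons merged over all transcripts. The antisense of the whole hairpin was found in 2 of 17 SERF2 transcripts, and that of the mature sequence of 20 nt in 9. MIR1282 was the only one of the 3 with an entry in the RefSeq table (GRCh38.p14). It is shown with its seed, bases 2 to 8, in capitals, followed by the same stretch in the sense of SERF2.
hsa-miR-1282: uCGUUUGCcuuuuucugcuu
SERF2: aagcagaaaaaggcaaacga

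The other pair of microRNA rows lies in nuclear copies of mitochondrial DNA. The MIR6723 transcript of 89 nt, on chromosome 1, matched 78 nt of the opposite strand of MT-CO1, the cytochrome oxidase subunit gene, without a mismatch. The MIR4461 transcript of 74 nt, on chromosome 5, matched 32 nt of the opposite strand of MT-ND4L. MIR6723 held 4373, 5531 and 10242 counts (15741 ± 5004 CPM) and MIR4461 held 2147, 2458 and 6692 (8675 ± 4616 CPM; SD, n = 3). In both rows replicates 1 and 2 were close and replicate 3 was the highest. Without these rows the share of counts in rows opposite an exon was 83.4%, 83.0% and 78.7% in replicates 1, 2 and 3.

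In most pairs of overlapping coding genes with at least 1 row at 100 CPM, 1 row held far more counts than the other. Both genes had a row of their own in 1707 pairs, and in 585 of these at least 1 row reached 100 CPM. Keeping pairs by the level of 1 row favours large ratios. The higher row exceeded the lower at least 10-fold in 353 of the 585 (60.3%), the median ratio was 19.01, and 64 pairs differed by less than 2-fold. Rows of a pair differ in length outside the overlap, so a ratio compares read counts per row. In 131 pairs both rows reached 100 CPM.

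The ATP6V1C2 row stood at 16877 CPM and the PDIA6 row opposite it at 8.20 CPM. The FAM166A row stood at 7631 ± 621 CPM and the row of the tubulin gene TUBB4B at 23.0 CPM. Pairs with both rows high were fewer. JMJD8 stood at 5596 ± 185 CPM and STUB1 at 2185 ± 249. ACAT2, a cholesterol metabolism thiolase, stood at 2495 ± 447 CPM beside the chaperonin gene TCP1 at 1737 ± 269. PKMYT1, an inhibitory kinase of mitosis, and PAQR4 were equal within their spread, at 1939 ± 480 and 1883 ± 136 CPM (SD, n = 3 for all).

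**Figure D2:**
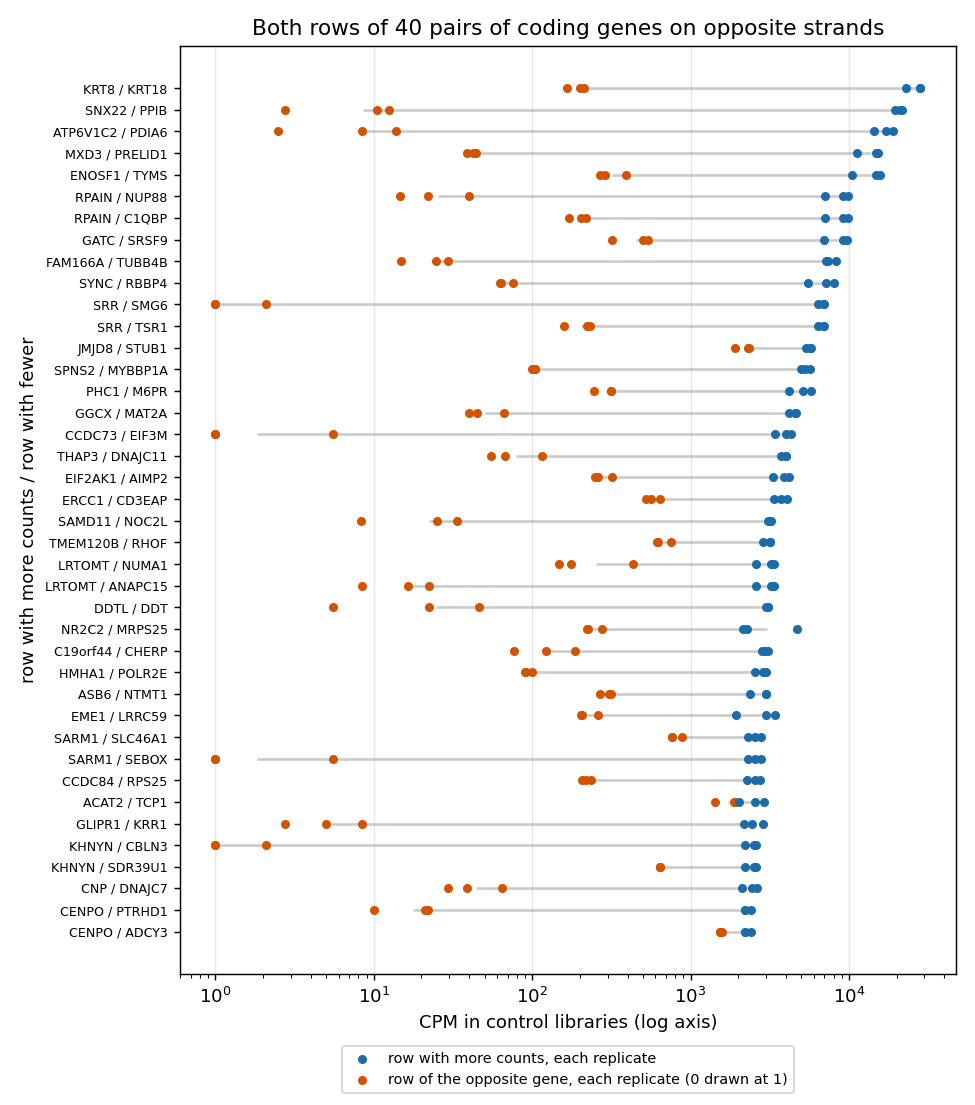
CPM (log axis) in each control replicate of both rows of 40 pairs of coding genes with exons on opposite strands, taken from those with the highest leading row; blue points are the row with more counts, orange points the row of its partner. KRT8 and SNX22 lie at 26460 and 20753 CPM with partners at 193 and 8.55, while JMJD8 with STUB1 and ACAT2 with TCP1 lie close together.

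How the opposite gene lies was related to the level of a row. Of 2133 rows tail to tail with a coding gene, 594 (27.8%) reached 100 CPM, and 137 of the 200 highest rows were of this kind. The share was 16.6% of 494 rows lying inside the opposite gene, 11.2% of 259 rows that enclose it, and 7.59% of 1725 rows head to head. Rows classed as having no gene opposite reached 100 CPM in 123 of 14612 cases (0.842%), and rows opposite an intron alone in 21 of 2401 (0.875%). These classes, and the distance classes below, also hold genes that face only a RefSeq-span row, such as PCNA opposite PCNA-AS1. The longer the overlap, the higher the row tended to be, with a Spearman correlation of 0.240 over 4611 rows, a weak relation across genes of the same libraries that are not independent.

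Rows without an overlap were higher where another coding gene ended near their own 3′ end. With the facing 3′ ends 1 to 500 nt apart, 30 of 444 rows (6.76%) reached 100 CPM. The share was 2.203% at over 500 and up to 2000 nt, 0.951% at over 2000 and up to 10000 nt, and 0.517% beyond. Examples among the 200 highest rows were YIF1B, 95 nt from the end of C19orf33 (1768, 2071 and 1654 counts; 4493 ± 905 CPM), NCAPH2, 96 nt from the cytochrome oxidase assembly gene SCO2 (1854 ± 123 CPM), and BMP6, 95 nt from the disulfide isomerase gene TXNDC5 (1279 ± 128 CPM). P2RX5, 2531 nt from EMC6, reached 2975 ± 447 CPM, and HIF1A-AS2, opposite introns of HIF1A, 2542 ± 470 CPM (SD, n = 3). NCAPH2, BMP6, P2RX5 and HIF1A-AS2 were chosen after their values were seen, as were ACAT2 and PKMYT1 above.

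**Figure D3:**
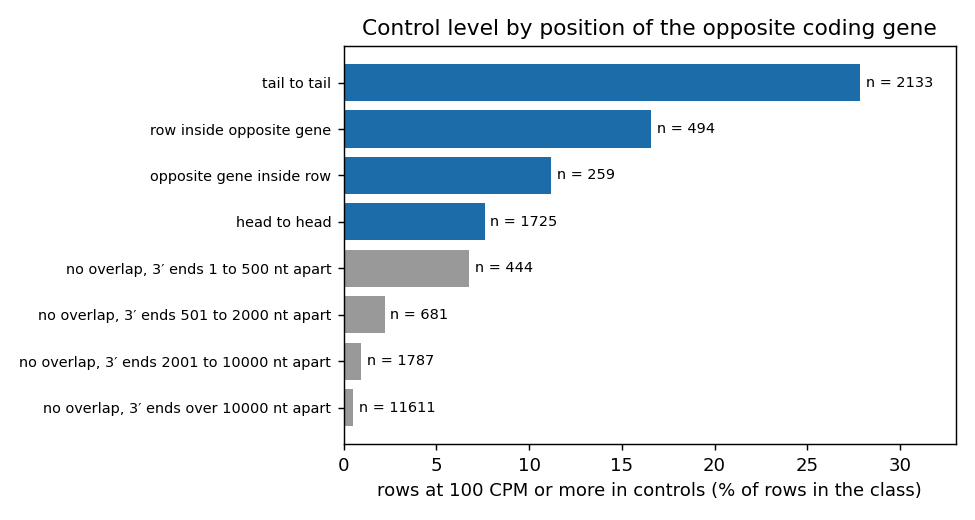
Share of rows at 100 CPM or more in controls (x axis, percent of the rows in each class, with n beside each bar) by how the nearest opposite coding gene lies. Blue bars have overlapping exons and grey bars have none listed, though genes facing only a RefSeq-span row are in the grey bars. The share falls from 27.8% of tail-to-tail rows to 0.517% of rows with no facing 3′ end within 10000 nt.

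Few list genes had a row opposite them. Where keratin, proliferation, redox and cytoskeletal genes had one, it was mostly at 100 CPM or more. For scale, 4323 coding genes of the annotation had at least 1 row opposite them, and the highest such row reached 100 CPM for 981 (22.7%), with a median of 13.6 CPM. Rows named for a coding gene reached it in 897 of 19482 cases (4.6%), and of all rows 4.43% did. The lists were chosen with earlier results of these data known. Their shares below are therefore descriptions and not a test against these values. Genes with no row opposite them cannot be read this way, so most list members below are known from their own rows alone. In RNA of whole cultures, fewer cells of a kind and less RNA per cell cannot be told apart.

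Of 23 genes for keratins and cell junctions, 3 had a row opposite them and all 3 rows reached 100 CPM. They were KRT18 and KRT8, each read through the other, and the tight junction gene CLDN7. The row opposite CLDN7, ELP5, held 71, 80 and 100 counts (201 ± 7.22 CPM) with 38 nt of overlap. The own rows of the list had a median of 8.07 CPM. EPCAM and CDH1, defining epithelial surface genes, held 5, 14 and 6 and 3, 0 and 3 counts, and the catenin gene CTNND1, with no row opposite, 154, 211 and 226 (474 ± 50.7 CPM). The own rows at 100 CPM or more were KRT8, KRT18 and CTNND1, so the epithelial label was checked on few rows.

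Of 16 genes of intestinal identity, 4 had an opposite row and 1 of these reached 100 CPM. VIL1, the gene of the microvillus protein villin, lies opposite 3045 nt of USP37, which held 658, 683 and 485 counts (1508 ± 431 CPM). The row opposite GATA6 was at 0 in all 3 libraries. CDX2, the main intestinal homeobox gene, held 10, 8 and 8 counts in its own row and has no row opposite.

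Genes of differentiated gut cells were low in their own rows and had almost no opposite rows. For absorptive cells 15 of 20 own rows were at 0 and the highest stood at 9.73 CPM. For goblet cells 8 of 13 were at 0, and the mucin gene MUC2 held 2, 6 and 13 counts. For enteroendocrine and Paneth cells 10 of 12 were at 0, and the single opposite row, for GCG, had 1 count in all. Since own rows of broadly used genes were also low, with a median of 11.2 CPM over 22 such genes and GAPDH at 120 ± 33.6, these values do not show that the genes are silent.

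Among 17 genes of intestinal stem cells and WNT signalling, 5 had an opposite row and 1 reached 100 CPM. RNF43, a WNT receptor antagonist often mutated in colorectal cancer, lies opposite 1521 nt of BZRAP1-AS1, which held 1135, 1318 and 1686 counts (3310 ± 205 CPM). That row also lies opposite the elongation factor gene SUPT4H1. The rows opposite EPHB2, LEF1, TCF7 and CCND1 stood at 93.2, 12.2, 9.99 and 3.36 CPM.

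Genes of other lineages could hardly be read through opposite rows. Of 17 fibroblast and mesenchymal genes 5 had an opposite row, none reached 100 CPM (22.7% did over all coding genes with an opposite row, and 5 rows are few to set against that), and those opposite VIM, SPARC and ZEB2 were at 0 in all 3 libraries. The rows opposite ACTA2 and ZEB1 stood at 6.50 and 0.698 CPM. Own rows were at 0 for 13 of 16, with summed levels of 79.8, 67.2 and 193 CPM in replicates 1, 2 and 3, most of it from FN1 (24, 23 and 83 counts). No endothelial gene had an opposite row, 5 of 9 own rows were at 0, and their sum was 85.3, 79.6 and 130 CPM. Of 12 immune genes 6 own rows were at 0, PTPRC and CD3E among them, and the sum was 149, 167 and 218 CPM. In each of these lists replicate 3 had the highest sum. This was not particular to them. Own rows of the stem cell and WNT list summed to 198, 231 and 297 CPM, and of the innate sensing list to 162, 202 and 356. The proliferation list went the other way (1733, 1600 and 1429 CPM). Of rows of at least 20 CPM, 1177 were 1.5-fold higher and 272 1.5-fold lower in replicate 3. The part of other cells in these sums was not tested.

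Proliferation genes were the list with the most opposite rows at a high level. Of 28 genes 9 had one, and 7 of the 9 reached 100 CPM, with a median of 356 CPM. Over all coding genes with a row opposite 22.7% did, with a median of 13.6 CPM. As this list too was chosen with earlier results known, the gap is not a test. TYMS and PCNA led through ENOSF1 and PCNA-AS1. The row opposite CCNA2, the cyclin of S phase, was EXOSC9 with 500, 435 and 438 counts (1125 ± 232 CPM), and the CCNA2 row itself stood at 706 ± 123 CPM. The row opposite HMMR, a spindle-associated gene, was HMMR-AS1 with 426, 411 and 466 counts (1057 ± 103 CPM). Rows opposite CDK4, PLK1 and MCM7 stood at 356, 234 and 193 CPM. For PLK1 the overlap, with ERN2, was only 42 nt. The row opposite MCM2 was at 0 and that opposite CDK2 at 1.75 CPM.

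Protein folding, redox and cytoskeletal lists followed. In the endoplasmic reticulum and chaperone list 4 of 9 opposite rows reached 100 CPM, those for PPIB, PDIA6, TCP1 and PDIA3 (193 ± 8.52 CPM through ELL3), and HSPE1 stood at 88.5 CPM. In the list of NRF2 targets and iron genes 6 of 9 did. These were CBR1, a carbonyl reductase, through LOC100133286 (1795 ± 340 CPM), the autophagy receptor gene SQSTM1 through C5orf45 (1475 ± 189), the small MAF gene MAFK through TMEM184A (1040 ± 69.3), the peroxiredoxin gene PRDX1 through MMACHC (827 ± 167), the ferritin gene FTH1 through BEST1 (267 ± 64.2) and CBR3 through CBR3-AS1 (112 ± 44.7). The cytoskeletal list had 6 of 10. The highest were TUBB4B, the actinin gene ACTN4 through CAPN12 (1938 ± 66.9 CPM), the membrane linker gene EZR through EZR-AS1 (593 ± 95.4), TAGLN (233 ± 20.6) and MYL6 (190 ± 17.3). EZR and EZR-AS1 share only 24 nt, less than a 50 bp read. PFN1 was the one whose opposite row, ENO3, was at 0.

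Glycolysis, ribosomal, innate sensing and chromatin genes had few opposite rows or low ones. None of 4 glycolysis genes reached 100 CPM this way (TPI1 59.4, ENO1 30.6, SLC2A1 10.99 and PFKM 6.94 CPM), while the own row of HK2, the hexokinase gene, stood at 1224 ± 190. Of 12 ribosomal protein genes 1 did, RPL35 through 11 nt of WDR38 (608, 722 and 590 counts; 1568 ± 295 CPM), and the next were RPL5, RPL32 and RPL10 at 87.3, 82.0 and 42.6. Antigen presentation had 3 of 6, with a median of 141 CPM against 13.6. The peptide transporter gene TAP1 and the immunoproteasome gene PSMB8 share the opposite row TAPSAR1 (440 ± 35.1 CPM), and the rows opposite PDIA3, ERAP1 and HLA-F stood at 193, 88.3 and 29.1 CPM. No innate sensor or NF-κB gene had an opposite row and 15 of 27 own rows were at 0. The single one for chromatin was CBX3 at 41.6 CPM.

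Replicate 3 stood apart from replicates 1 and 2. Of the 1153 rows at 100 CPM or more, 164 were at least 1.5-fold higher and 63 at least 1.5-fold lower in replicate 3 than in the mean of the other two (19.7% in all), and 78 differed at least 2-fold. Between replicates 1 and 2 the counts were 26 and 23 (4.25%), with 3 at 2-fold. Over all rows with at least 10 counts in a pair of libraries together, the chi-square per degree of freedom was 1.33 for replicates 1 and 2, 4.86 for 1 and 3 and 4.78 for 2 and 3, where 1 is the sampling noise of counts. With TMM-scaled library sizes in place of column totals the split turned, with 116 rows higher and 258 lower, since that scaling moves the median log2 ratio from -0.08 to -0.31.

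The highest rows were mostly lower in replicate 3. Of the 30 highest 25 were lower and 5 higher, with a median log2 ratio of -0.34 and a median coefficient of variation of 14.9% over the 3 libraries. Of the 200 highest 152 were lower and 48 higher (median -0.22, coefficient of variation 12.3%). With TMM scaling 28 of 30 and 179 of 200 were lower. The 200 highest rows together held 57.4%, 57.4% and 51.6% of the counts in replicates 1, 2 and 3. Replicate 3 also had the most rows with a count, 11665 against 10196 and 10573, and the highest total.

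**Figure D4:**
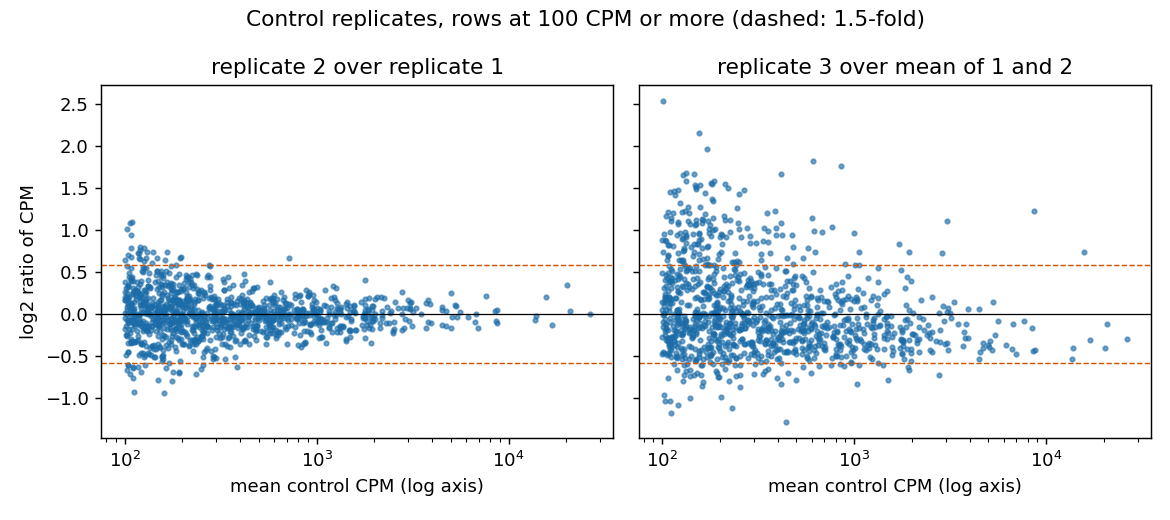
Log2 ratio of CPM against mean control CPM (log axis) for the 1153 rows at 100 CPM or more, with replicate 2 over replicate 1 on the left and replicate 3 over the mean of both on the right; dashed lines mark 1.5-fold. On the left 4.25% of the rows lie past the lines and on the right 19.7%, with 164 rows above and 63 below.

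The rows that were highest in replicate 3 relative to the others are named for genes of several functions. MIRLET7DHG, the host transcript of let-7 microRNAs, held 11, 19 and 107 counts in replicates 1, 2 and 3, a log2 ratio of 2.53 (95% counting interval 1.92 to 3.15). The BMP8A row, opposite the pseudogene PPIEL, held 31, 24 and 154 (2.15), and the TPPP row, opposite CEP72, 38, 28 and 162 (1.96). NFE2L3, a CNC transcription factor row opposite an intron of HNRNPA2B1 and no exon, held 121, 134 and 561 (1.82). COX20, a cytochrome oxidase assembly gene with 3502 nt opposite the RNA-binding protein gene HNRNPU, held 194, 167 and 769 (1.76, interval 1.59 to 1.95). SH3BP5, PCGF3 and FRMD4A followed at 1.68, 1.67 and 1.66. In all 8 rows replicate 3 lay above both others.

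The lowest in replicate 3 was CCDC152, opposite 1452 nt of the selenium transport gene SELENOP, with 226, 194 and 108 counts (log2 ratio -1.29, interval -1.60 to -0.97). CBR3-AS1, opposite CBR3, held 52, 53 and 29 (-1.18). PIH1D2, opposite the pyruvate dehydrogenase subunit gene DLAT, held 113, 101 and 62 (-1.12), and TOMM20L, opposite the mitochondrial import gene TIMM9, 53, 59 and 33 (-1.08). EHHADH-AS1, FAM86JP, ERI2 and RPF1 stood at -1.04, -1.04, -1.005 and -0.995. These rows were chosen for this ratio, so the values describe the choice. All 16 kept their sign under TMM scaling.

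Replicate 3 of the vesicle groups, which the choice did not use, leaned the same way. All 8 of the higher rows were higher in replicate 3 of the V. cholerae group and all 8 in the E. coli group, with median log2 ratios of 1.94 and 1.58. Of the 8 lower rows, 8 and 7 were lower (medians -0.41 and -0.53), and the exception was EHHADH-AS1 at 1.37 with E. coli vesicles. Of the 164 rows at least 1.5-fold higher in control replicate 3, 133 (81.1%) were so in V. cholerae replicate 3 and 119 (72.6%) in E. coli replicate 3, against 15.4% and 28.2% of all 1153 rows. Of the 63 lower rows 20 (31.7%) and 24 (38.1%) were so, against 8.93% and 11.5%. Chi-square per degree of freedom with replicate 3 was 5.67 to 8.76 in those groups and 1.05 and 1.90 for their replicates 1 and 2. What the libraries with the same number share is not given in the labels.

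**Figure D5:**
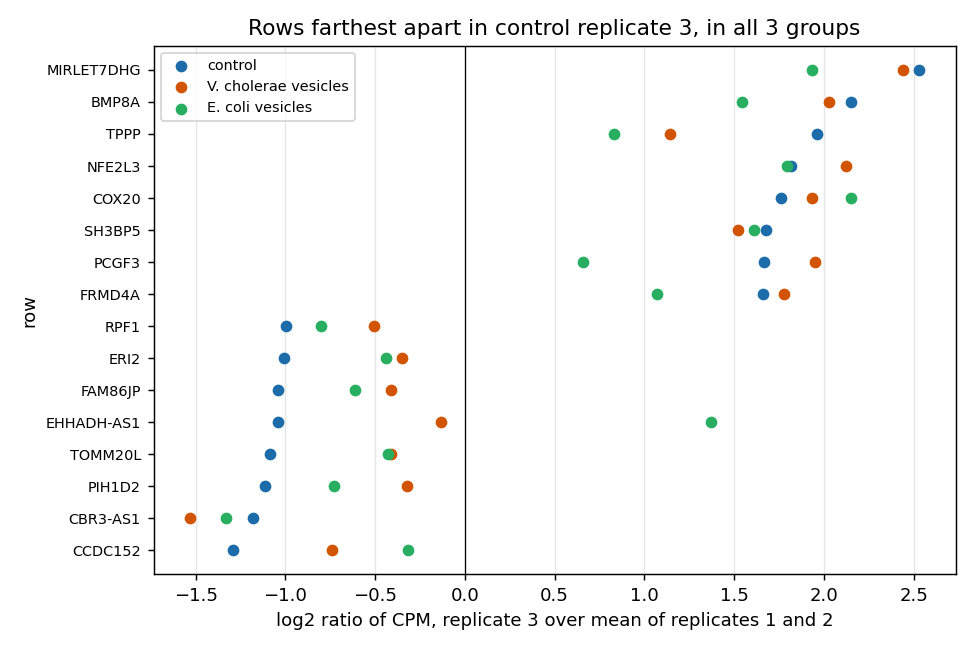
Log2 ratio of CPM in replicate 3 over the mean of replicates 1 and 2 (x axis) for the 16 control rows farthest apart, in controls (blue) and both vesicle groups (orange and green). The upper 8 rows are to the right of 0 in all groups, and of the lower 8 only EHHADH-AS1 crosses it, at 1.37 with E. coli vesicles.

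The higher and the lower rows of replicate 3 were also set side by side by position. Rows with no gene opposite made up 27 of the 164 higher rows (16.5%), 4 of the 63 lower (6.35%) and 10.7% of all 1153. A coding gene lay opposite 85 of the higher and 56 of the lower rows, with median overlaps of 404 and 606 nt against 552 nt over all. Coding sequence of the opposite gene filled 12.7% of the overlap in the higher rows, 20.6% in the lower and 19.5% in all. No test was made of these shares. MIR6723 and MIR4461 were at log2 ratios of 0.73 and 1.22 in controls, the highest of the 30 leading rows. In replicate 3 of the V. cholerae group they stood at 1.04 and 1.30, but in that of the E. coli group at -0.36 and 0.19.

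Few of the 200 highest control rows were called as different from control after vesicles in the fit by group. The comparison asks whether the leading rows of untreated cells were altered by either kind of vesicle, and edgeR's quasi-likelihood test was run on 3679 rows with Benjamini-Hochberg adjustment. With V. cholerae vesicles 2 rows were called at an adjusted p under 0.05 (0.0544%) and none of the 200, of which 5 had an unadjusted p under 0.05 against 100 of all rows (2.72%). DESeq2 called 1 of the 200 and limma voom none. In simulated data for this comparison the fit by group found 0 of 21 leading rows changed 1.5-fold. It found 8 of 13 changed 2-fold and 16 of 16 changed 4-fold. A low count of calls thus does not show that few rows changed. With E. coli vesicles 7 rows were called (0.19%), 1 of them among the 200, and 31 of the 200 had an unadjusted p under 0.05 against 414 of all (11.3%).

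The called row was C5orf45 on chromosome 5, with 1582 nt opposite SQSTM1. It stood at 1474, 1287 and 1664 CPM in control replicates 1, 2 and 3 and at 4218, 4219 and 3212 CPM with E. coli vesicles, and the groups did not overlap. The log2 fold change was 1.47 ± 0.26 (SE; edgeR adjusted p = 0.0185). With V. cholerae vesicles it stood at 4097, 4037 and 3081 CPM, a log2 fold change of 1.36 that missed the threshold (edgeR adjusted p = 0.0737). The E. coli call was lost on leaving out control replicate 1 or 2 or E. coli replicate 1 or 2. Over 25 alternatives the edgeR, DESeq2 or voom adjusted p ran from 3.6e-14 to 0.237 for E. coli and from 6.97e-13 to 0.861 for V. cholerae, always with a higher level.

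With the replicate number as a block, more of the leading rows were called. The block treats same-numbered libraries as pairs, which the correlations between libraries do not show for numbers 1 and 2. Of the 200, 5 were called with V. cholerae vesicles (4 higher and 1 lower; 13 of all rows, 0.353%, with 0.272% higher and 0.0815% lower) and 18 with E. coli vesicles (12 higher and 6 lower; 84 of all, 2.28%, with 1.47% higher and 0.815% lower). With V. cholerae vesicles the KRT8 row, opposite KRT18, fell from 26460 ± 3082 to 18869 ± 3460 CPM (log2 -0.50 ± 0.08, SE). In that row every V. cholerae vesicle library was below every control. This call was lost in the blocked fit without control replicate 2, V. cholerae replicate 1 or V. cholerae replicate 2, and was absent in the fit by group (edgeR adjusted p = 0.9995). C5orf45 (1.32), NME7, opposite the sodium pump beta subunit gene ATP1B1 (1.11), SLC9A3, the sodium/proton exchanger row opposite EXOC3 (0.80), and TMEM120B, opposite the small GTPase gene RHOF (0.49), rose on the log2 scale.

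With E. coli vesicles 6 of the 200 rows fell in the blocked fit, and none was called lower without control replicate 1, control replicate 2 or E. coli replicate 1. HMMR-AS1 changed by -0.84 ± 0.16, PCNA-AS1 by -0.59 ± 0.12 and ENOSF1, opposite TYMS, by -0.43 ± 0.09 (log2, SE). PCNA-AS1 went from 5238 ± 884 to 3357 ± 487 CPM without overlap of the groups. The others were TMEM140, opposite C7orf49 (-0.61), LOC100129148 (-0.61) and BZRAP1-AS1, opposite RNF43 (-0.45). The 12 that rose were led by C5orf45 (1.43) and TMEM184A opposite MAFK (0.98). Next came ACOT13 (0.66), LDLRAD2 opposite HSPG2 (0.63), NME7 (0.63), TMEM120B (0.62) and EME1 opposite LRRC59 (0.61). PMPCB opposite DNAJC2 (0.60), DALRD3 opposite NDUFAF3 and WDR6 (0.56), YIF1B (0.54), CTNS (0.53) and MIR1282 (0.39) followed. Their count rested on single libraries. For E. coli the blocked fit called 103 of the 200 without E. coli replicate 3, 1 without control replicate 1, control replicate 2 or E. coli replicate 1, 8 without E. coli replicate 2, and 5 and 11 without V. cholerae replicates 1 and 2. For V. cholerae it called 15 without E. coli replicate 3, 2 without V. cholerae replicate 1, and 3 without control replicate 2 or V. cholerae replicate 2.

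Most of the leading rows changed less than 1.5-fold. An absolute log2 fold change of at least 1.5-fold was seen in 3 of the 200 with V. cholerae vesicles (1.5%, against 9.60% of all rows tested) and in 30 with E. coli vesicles (15%, against 22.7%). Control and vesicle libraries did not overlap in 24 of the 200 (12%) and 41 of the 200 (20.5%), against 9.65% and 14.9% of all rows tested. The 200 were chosen by their control level, which also enters the fold change, and rows with more counts carry less counting noise. These shares therefore cannot tell whether leading rows respond less or more than other rows. Both comparisons use the same controls.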

How the data were processed

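The deposited table holds raw counts per gene row, made by the authors before deposit. Per the submitters' processing notes the tools were HTSeq 0.6.1, Cufflinks 2.2.1, TopHat2 2.0.12, Bowtie2 2.2.3, SAMtools 0.1.19 and FastQC, on build hg19. The strand setting of the counting was not given in the sources used here, nor were the annotation and filters. Each of the 9 columns entered a fit. Row and gene lists were chosen with earlier results of these data known.

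CPM were counts over the column total times 1e+06, ranked by the mean of 3 controls. Rows were matched to GENCODE 29 (GRCh38) by name or alias, and otherwise to RefSeq genes, for 25341 of 26008 rows. An overlap was at least 1 nt of exon on the opposite strand. For 613 rows known only by a RefSeq span, the whole span of the row's gene was used, introns included. Overlaps of these spans were listed for the span row alone and not for the gene facing it. Since counting used hg19, no coordinates are printed. Overlap lengths are those of GENCODE 29 exons, or of the RefSeq span against GENCODE 29 exons for the span rows. A row's main opposite gene is a coding one with the longest overlap.

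Named rows were the 30 highest, up to 5 genes per list with the highest opposite rows, the 8 highest and 8 lowest ratios in replicate 3 among rows of at least 100 CPM, and rows of the 200 highest called with vesicles. Own rows given for list genes, and rows or pairs said to be chosen after their values were seen, lie outside this rule. A few named rows are not reported here. Counts of 9 libraries were fitted by group with edgeR 4.0.16 in R 4.3.3 (filterByExpr, TMM, robust quasi-likelihood test, Benjamini-Hochberg, 0.05). SE is the log2 fold change over the square root of F. Deviations from group means correlated between same-numbered libraries at 0.115 to 0.677 (other numbers -0.497 to 0.350). As every same-numbered value was above 0.1, the numbers were taken as pairing and a fit with a replicate block is given beside. Libraries numbered 1 and 2 of different groups also correlated at 0.133 to 0.350, much as same-numbered ones without replicate 3 did (0.115 to 0.328). The values thus set replicate 3 apart but do not show that numbers 1 and 2 are pairs. V. cholerae replicates 1 and 2 differed little more than counting noise and were kept apart. Tested on simulated data for the V. cholerae comparison (3679 rows), the fit found 0 of the 63 rows that differed 1.5-fold, 16 of the 68 that differed 2-fold and 57 of the 69 that differed 4-fold, and made 8 false calls. Alternatives were other scalings, filters, pseudocounts and overlap minimums, DESeq2 1.42.0, limma 3.58.1 (voom), the block, 50 or 500 leading rows, and each library left out. Replicates 1 and 2 alone, the blocked fit without each library, and TMM scaling of the replicate 3 rows were added after the data were seen. Intervals (95%) cover counting error only.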

Additional observations from a re-analysis of the deposited data

How the results depend on the processing

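The ranking of control rows held best: over 8 alternatives 193 to 200 of the 200 highest rows and 28 to 30 of the 30 highest were shared with the ranking given (193 to 194 of the 200 without a control replicate). The share of counts in rows opposite an exon, 84.1%, was 82.4% at 50 nt of overlap, 70.2% at 200 nt, 74.1% with opposite coding genes alone, and 83.6% to 85.1% without a control replicate. The 19.7% of rows 1.5-fold apart in replicate 3 was 32.4% with TMM scaling, 39.0% among rows of at least 20 CPM and 9.19% among rows of at least 500 CPM; 1 or 3 added counts changed it little (19.5% and 18.8%). Rows near 20 CPM rest on few counts, which limits that value.

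Calls among the 200 highest rows, none with V. cholerae and 1 with E. coli vesicles, depended on the fit. With the replicate block, taking the numbers as pairing, they were 5 and 18. For V. cholerae they were 2 with library size alone, 1 with no filter and 1 with DESeq2. For E. coli they were 6 with no filter, 6 with DESeq2 and 0 among the 50 highest. Leaving out 1 library gave 0 to 1 for V. cholerae (1 without E. coli replicate 3 or V. cholerae replicate 3) and 0 to 25 for E. coli (25 without E. coli replicate 3), and replicates 1 and 2 alone gave 16 and 106. The cause was not tested. RLE factors, voom and the 500 highest rows gave the same 0 and 1.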
